A study of Mus musculus with 12 samples.

Results

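Class I odorant receptors were described in mouse olfactory epithelium, the sensory tissue of the nose, as 108 genes among 19937 measured. The members were all genes whose symbol runs from Olfr543 to Olfr692, by the number in the symbol. That range holds 147 genes in RefSeq (assembly GRCm38.p6), all on chromosome 7, of which 117 are protein coding and 30 are pseudogenes. The 108 members were those with a probe that names a single gene, and all 108 are protein coding. Another 7 genes of the range were present only on probes that name several genes, and 32, including the 30 pseudogenes, were on no listed probe and were not analysed here. Olfr617 had 2 probes, and the brighter was used.

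The samples were 12 pools of RNA, each from 4 male C57BL/6 mice (48 in all, no age given in the labels). The mice carried no genetic change or drug in the labels. They were kept with lights on and off in a daily cycle, were moved to constant darkness, and were then sampled at 4 h intervals from circadian time (CT) 12 to CT56. CT12 is the start of subjective night, the time at which lights would have gone off. The series covers 6 phases of the day over 2 cycles, with 1 pool per phase and cycle, and asks which genes of the tissue follow the time of day. There is no unpooled animal, so every error here is a spread between pools and not between mice. Each pool was measured on 1 Affymetrix array, and the values are on a log2 scale, where a difference of 1 is a doubling. The number of arrays, not a read depth, limits the precision.

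Odorant receptors are G protein coupled receptors on the cilia of olfactory sensory neurons, and a mature neuron expresses a single receptor gene, from a single allele. They divide into class I, an older group first known from fish, and the larger class II. Mouse class I genes lie together in a cluster on chromosome 7, are expressed mainly by neurons of the dorsal part of the epithelium, and are known for responses to carboxylic acids and other water-soluble odorants. The transcription factor Bcl11b takes part in the choice between the classes, and a distant enhancer acts on the class I cluster as a whole. The other 912 Olfr genes measured here, taken as class II, served for comparison. Another 6 class I genes, Olfr64 to Olfr69, are numbered outside the range and were kept apart from both. Olfr78, a class I receptor for short-chain fatty acids and lactate, was only on a probe that also names Olfr560 and was not analysed here.

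The tissue label was checked against marker lists. All 11 mature neuron markers were measured, at mean log2 values of 11.12 to 13.73, while 20 genes of other organs such as pancreas, testis and heart gave 5.34 to 8.70. The 5 respiratory secretory markers ran from 4.76 to 13.61 (median 11.90) and the 7 respiratory ciliated markers from 8.66 to 9.66. The 12 pools correlated with one another at 0.964 to 0.995 over all genes, and the CT56 pool had the lowest mean correlation with the rest (0.975), followed by CT32 (0.981). Some gland genes differed widely between pools, with SDs of 2.24 for Bpifb9b, 1.57 for Lcn11 and 1.51 for Obp1a, but 0.13 for Aqp5. The mean of 6 gland genes lay 1.22 below its own average at CT12 and 1.53 above it at CT44. Its correlation with the mean of the class I members over the 12 pools was -0.24, and its part in the results below was not tested.

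Class I probes were brighter than most receptor probes. The members' mean log2 values ran from 4.98 to 11.16 with a median of 9.36, against a median of 6.99 for the other Olfr genes and 8.18 for all genes. Of the 108 members, 85 lay above the median of all genes and 11 below its lower quartile, while 207 of the 912 other Olfr genes lay above the median. The brightest of the genes of other organs, Lhb at 8.70, was exceeded by 76 members and 148 other Olfr genes. Probes differ in how well they bind, so brightness does not order the genes by abundance, and no test was made between probes.

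The brightest probes were those of Olfr592 (11.16 ± 0.13, SD over 12 pools), Olfr672 (11.11 ± 0.16) and Olfr578 (11.06 ± 0.18). At the dim end stood Olfr624 (4.98 ± 0.17), Olfr631 (5.17 ± 0.09) and Olfr547 (5.45 ± 0.08). These 3 lay below the median of the genes of other organs, 6.90, a level at which signal from the gene and background cannot be told apart. 98 of the 108 members lay above that median. The median SD over the 12 pools was 0.16 for the members, 0.18 for the other Olfr genes and 0.13 for all genes. Olfr591 varied most between pools (SD 0.30), followed by Olfr616 (0.27) and Olfr606 (0.27). Olfr555 (SD 0.07), Olfr556 (0.07) and Olfr571 (0.08) varied least, and all 3 have dim to middling probes, at 7.36, 6.88 and 7.76.

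Sequence before the annotated start of the genes was taken from RefSeq (GRCm38.p6), where 92 of the 108 members have 1 entry. In 69 of the 92 the annotated start is the ATG of the coding sequence, as in 72.2% of the other Olfr windows and 5.83% of all windows. For those genes the 250 bases before the start are not a promoter. The 5 windows printed here were therefore taken from the 23 others, for members that the results below name: Olfr544 and Olfr558, which have described ligands, and Olfr551, Olfr599 and Olfr630, which are among the smallest p-values of the 3 comparisons. Each is 250 bases that end just before the start, read 5′ to 3′ on the gene's strand. Olfr544 is at chr7:102488308-102488557, Olfr551 at chr7:102588820-102589069 and Olfr630 at chr7:103757351-103757600, all on the minus strand, and Olfr558 is at chr7:102702073-102702322 and Olfr599 at chr7:103337762-103338011, on the plus strand. Capitals mark matches to the 4 motifs searched: TAATTA and TAATGA, as homeodomain factors such as Lhx2 and Emx2 bind, CCCNNGGG, as Ebf factors bind, and TATAAA, the TATA box.
Olfr544: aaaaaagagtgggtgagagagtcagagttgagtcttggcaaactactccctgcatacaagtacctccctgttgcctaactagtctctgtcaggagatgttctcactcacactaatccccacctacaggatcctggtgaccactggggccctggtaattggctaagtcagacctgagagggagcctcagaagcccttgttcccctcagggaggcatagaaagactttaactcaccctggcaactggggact
Olfr551: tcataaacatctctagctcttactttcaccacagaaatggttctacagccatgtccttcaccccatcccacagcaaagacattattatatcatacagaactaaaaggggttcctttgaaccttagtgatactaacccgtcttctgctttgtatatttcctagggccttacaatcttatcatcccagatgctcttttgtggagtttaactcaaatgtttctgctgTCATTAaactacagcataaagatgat
Olfr558: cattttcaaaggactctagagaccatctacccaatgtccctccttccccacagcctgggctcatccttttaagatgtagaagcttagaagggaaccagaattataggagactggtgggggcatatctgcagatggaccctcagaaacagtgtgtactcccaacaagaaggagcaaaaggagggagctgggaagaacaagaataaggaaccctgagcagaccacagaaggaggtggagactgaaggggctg
Olfr599: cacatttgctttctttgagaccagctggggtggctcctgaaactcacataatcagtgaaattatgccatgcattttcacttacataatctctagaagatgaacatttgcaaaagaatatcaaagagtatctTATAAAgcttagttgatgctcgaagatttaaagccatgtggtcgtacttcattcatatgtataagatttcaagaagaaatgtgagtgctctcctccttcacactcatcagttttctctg
Olfr630: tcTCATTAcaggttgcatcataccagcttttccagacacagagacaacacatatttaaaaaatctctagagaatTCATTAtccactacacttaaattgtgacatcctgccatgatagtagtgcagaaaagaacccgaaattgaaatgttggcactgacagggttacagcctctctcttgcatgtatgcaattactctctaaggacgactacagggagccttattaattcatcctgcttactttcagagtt

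Olfr551 has TAATGA on the opposite strand (TCATTA), 26 bases before the start, and Olfr630 has the same match at 248 and at 176 bases. Olfr599 holds TATAAA at 119 bases. The windows of Olfr544 and Olfr558 hold none of the 4 motifs. Over all class I windows, with both strands searched and each motif counted on its own even where it overlaps another, TAATGA was present in 23 of 92, against 25.3% of the other Olfr windows and 8.59% of all windows. TAATTA was in 14.1%, 18.5% and 4.84% of these sets, TATAAA in 38.0%, 39.8% and 12.4%, and CCCNNGGG in 3.26%, 2.59% and 11.8%. Class I windows and other Olfr windows thus had close shares of each motif. Most windows of both start at the ATG and most of all windows do not, so the shares over all windows are for unlike sequence. No count was made over the 23 class I windows with another start. A match is a run of letters and not a measured binding site.

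The members varied together from pool to pool. With each gene set to its own mean, the median deviation of the 108 members was 0.03 at CT12, -0.01 at CT16, -0.02 at CT20, 0.13 at CT24, -0.08 at CT28 and 0.06 at CT32. In the second cycle it was -0.10 at CT36, 0.0006 at CT40, -0.20 at CT44, 0.13 at CT48, -0.08 at CT52 and 0.15 at CT56. At CT44 only 6 of 108 members lay above their own mean, and at CT48 and CT56 89 did. In both cycles the pools at phases 0 and 8 h were high and the pool at 4 h between them was low, so the members did not form a smooth day and night wave. The first principal component of the members held 49.5% of their variance.

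**Figure D1:**
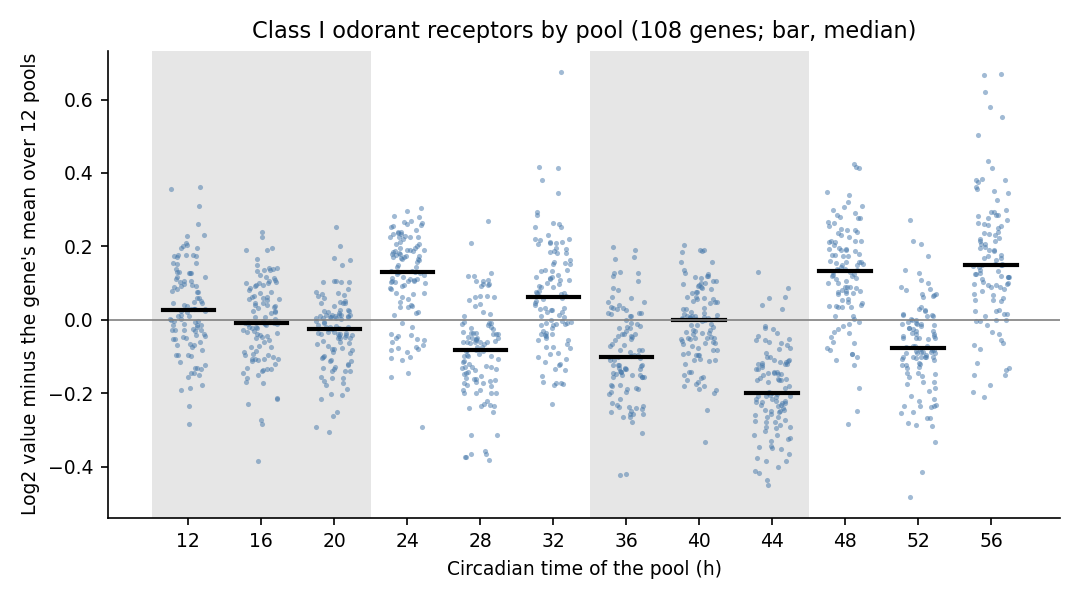
Log2 value of each of the 108 class I members minus its own mean over the 12 pools (vertical axis), by circadian time in hours (horizontal axis); points are genes, bars are medians, and grey marks the pools of subjective night. The medians run from -0.20 at CT44 to 0.15 at CT56, and the pools at CT28 and CT52 sit low between high neighbours.

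The median correlation between pairs of members over the 12 pools was 0.45, against 0.16 between pairs of the other Olfr genes, most of them dim. Among the 181 other Olfr genes at or above the members' lower quartile of brightness, 8.38, a limit chosen after the values were seen, it was 0.48. In all, 86 members correlated above 0.5 with the mean of the others, and 10 correlated below 0. These 10 include the dim Olfr547 (-0.32), Olfr555 (-0.54), Olfr571 (-0.14), Olfr574 (-0.43), Olfr631 (-0.17) and Olfr663 (-0.32). Neighbours by number had a median correlation of 0.53 over 107 pairs. After the members' mean was removed it was 0.10 for neighbours and -0.01 for all pairs. All of these are descriptions over 12 pools, whose genes share an array and its normalization.

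The shared pattern was not particular to class I. Those 181 other Olfr genes followed the members with a correlation of 0.94 (Spearman's rho 0.96). Without the 2 pools farthest from the members' median it was 0.97. The 6 class I genes outside the number range gave 0.92 (rho 0.94; 0.90 without those 2 pools). Over all 912 other Olfr genes, most of them dim, the correlation was 0.19 (rho 0.18), and over 6403 genes outside Olfr within the members' interquartile range of brightness it was 0.61 (rho 0.69).

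Some lists ran against the members. The mean of 5 muscle and bone genes (Acta1, Ckm, Col1a1, Ibsp and Myh1, of 6 listed) correlated with the members' mean at -0.89 (rho -0.84; -0.85 without the 2 farthest pools). It was highest at CT44, 0.27 above its average, where the members were lowest, and lowest at CT48, 0.21 below it. The 5 genes did not rise together at CT44. Ibsp read 8.21 there (mean 7.13), Col1a1 10.16 (mean 9.75) and Myh1 6.17 (mean 6.11). Acta1 and Ckm lay below their means, at 8.22 (mean 8.295) and 8.10 (mean 8.21). The 20 genes of other organs, whose values are mostly background, gave -0.65 (rho -0.73; -0.87 without the 2 farthest pools). Myh1, Ibsp, Ckm and Acta1, at mean levels of 6.11 to 8.3, lay within the range of those genes, 5.34 to 8.70. Among markers of the epithelium the mature neuron list gave 0.27 (rho 0.38), immature neurons 0.50, sustentacular cells 0.26 and respiratory ciliated cells 0.33. Without the 2 farthest pools these lists gave 0.65, 0.73, 0.52 and 0.19, so the values depend on those pools. The mature neuron list includes Kirrel2, whose SD over pools was 0.68 against a list median of 0.13. Kirrel2 on its own gave -0.18 over the 12 pools, and its weight in the list mean was not tested. Whether muscle and bone RNA in a pool, the level-dependent scaling of the arrays or the receptors themselves set the members' pattern was not tested. In these bulk pools, fewer class I neurons and less receptor RNA per neuron cannot be told apart.

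**Figure D2:**
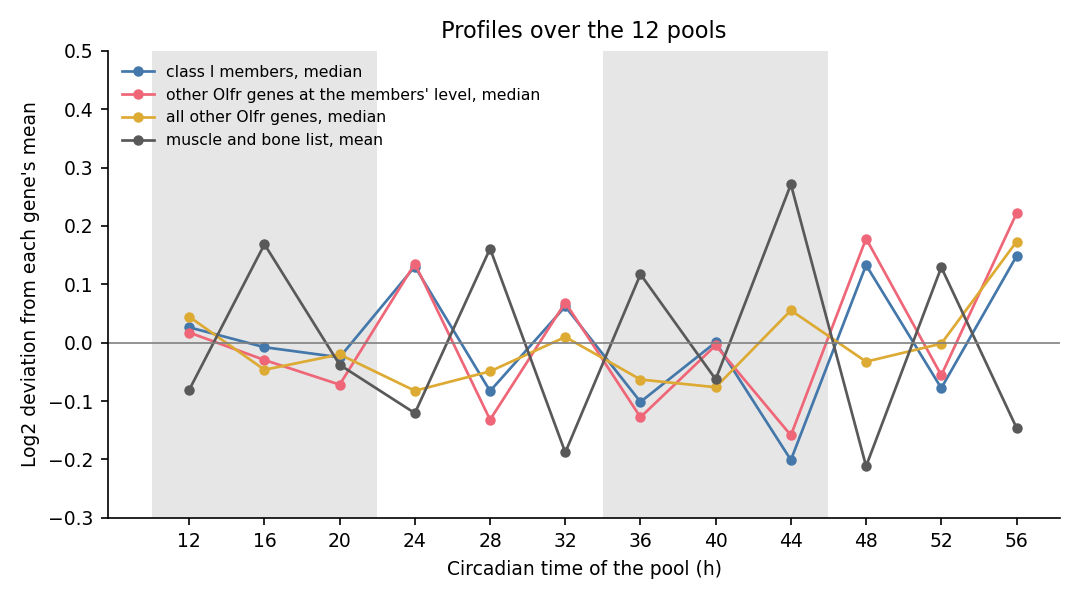
Deviation from each gene's own mean in log2 units (vertical axis) by circadian time in hours (horizontal axis), as the median of the 108 class I members, of 181 other Olfr genes of like brightness and of all 912 other Olfr genes, and as the mean of 5 muscle and bone genes; grey marks subjective night. The members and the bright other Olfr genes follow each other (correlation 0.94), and the muscle and bone list runs the other way (-0.89).

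Outside the receptors, the genes most like the members' mean over the 12 pools were Mvb12b (correlation 0.95), a subunit of the endosomal sorting machinery, then Gm13570 (0.92), Sdr39u1 (0.91), Bod1l (0.91) and Pik3c3 (0.91), the class III phosphoinositide 3-kinase. The most opposite were Cmya5 (-0.97), a protein of muscle, Pi15 (-0.96), St8sia3 (-0.94), a sialyltransferase, 4930417O22Rik (-0.94) and Ctla2b (-0.92). They were picked as the extremes among all genes outside Olfr, so the size of these correlations is a description.

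Zone markers were set beside the members, since class I neurons are mainly dorsal. Nqo1, an enzyme of the dorsal zone, correlated with the class I mean at 0.64 and with the mean of other Olfr genes at -0.24. Acsm4, also dorsal, gave -0.12 and -0.76. The ventral markers Ncam2 and Nrp2 gave 0.18 and 0.04 with class I, and 0.70 and 0.82 with the other Olfr genes. Without the 2 pools farthest from the median of each mean, Nqo1 gave 0.48 with class I and 0.32 with the other Olfr genes, and Acsm4 0.35 and -0.10. Ncam2 then gave 0.50 and 0.76, and Nrp2 0.38 and 0.63. All 4 markers were then positive with class I, and no order of dorsal and ventral markers is drawn from these values.

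The first comparison asked whether class I receptors follow a 24 h rhythm. With a 24 h cosine and sine fitted in limma, 0 of the 108 members had an adjusted p under 0.05, against 5 of all 19937 genes (0.0251%). At an unadjusted p under 0.05 there were 3 members, Olfr591, Olfr576 and Olfr630, against 3.54% of all genes. The fitted amplitude, the distance from mean to peak, had a median of 0.07 in log2 units over the members and 0.06 over all genes. Fitted peaks lay in subjective day for 83 members and in subjective night for 25. The share in day was 76.9%, against 54.0% of all genes and 82.3% of the 181 bright other Olfr genes. Without the CT28 pool the count was 8 and without CT52 it was 7, while without CT32 or CT44 it was 1. The mean of the members had an amplitude of 0.04 ± 0.04 (SE) with a peak at 6.10 h.

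Olfr591 came closest. Its log2 values were 9.30, 8.88, 8.96, 9.36, 9.33 and 9.94 from CT12 to CT32, and 9.02, 8.94, 9.15, 9.40, 9.47 and 9.46 from CT36 to CT56. All 6 day pools (CT24 to CT32 and CT48 to CT56) lay above all 6 night pools. The fitted amplitude was 0.33 ± 0.07 (SE) with a peak at 5.43 h, and the limma adjusted p was 0.518. Its highest value was the CT32 pool, 0.47 above the next day pool, and over the fits that each left out 1 pool the amplitude ran from 0.27 to 0.38.

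The other members with small p-values in this fit had amplitudes from 0.14 to 0.21. Olfr576 (8.11 lowest, 8.84 highest) had 0.18 ± 0.06 with a peak at 7.34 h, and Olfr630 (7.33 lowest, 8.03 highest) had 0.18 ± 0.06 with a peak at 8.65 h. Olfr630 and Olfr585 (amplitude 0.19 ± 0.08) each rested on the CT56 pool: Olfr630 read 8.03 there and at most 7.67 elsewhere, and Olfr585 read 6.65 there and at most 6.14 elsewhere. Without that pool their amplitudes were 0.10 and 0.10. Olfr675 (0.21 ± 0.08), Olfr607 (0.16 ± 0.07), Olfr599 (0.15 ± 0.06) and Olfr561 (0.14 ± 0.06) completed the 8 smallest p-values, and limma's adjusted p was 0.996 for each of these 7.

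A test of any difference among the 6 phases, with no wave shape assumed, was added after the data had been seen. It called 0 members at an adjusted p of 0.05 (limma), against 17 of all genes (0.0853%). At an unadjusted p under 0.05 it gave 34 of the 108 members, against 16.9% of all genes. The same test gave 280 of the 912 other Olfr genes and 79 of the 181 bright ones, so the larger share was not particular to class I. With a cyclic loess scaling, which evens out level-dependent differences between arrays, it gave 24 members and 14.2% of all genes. The smallest p was that of Olfr684, named after its values were seen, with an adjusted p of 0.147. Olfr684 read 8.04 and 8.13 at phase 0 h and 7.93 and 7.90 at 16 h, but 7.55 and 7.61 at 12 h and 7.65 and 7.53 at 20 h. The 2 pools of each of these phases lay nearer to each other than to the pools of the phase before or after, and high and low phases alternated.

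The second comparison set the 6 pools of subjective night (phases 12, 16 and 20 h) against the 6 of subjective day (0, 4 and 8 h). limma called 0 members at an adjusted p of 0.05, as it called 0 of all genes (0.0%). By sign alone 96 of the 108 members lay lower at night, against 51.5% of all genes, with a median night minus day difference of -0.09 against -0.0044. At an unadjusted p under 0.05 there were 20 members lower and 0 higher, against 5.69% of all genes lower and 4.17% higher. A single member, Olfr591, had all night pools below all day pools, as 35 of all genes did (0.176%). The smallest adjusted p over the members was 0.497. Without CT28 the count of lower members was 30, and without CT44 the median difference was -0.06.

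Most other genes of like brightness lay lower at night too. Among the 181 bright other Olfr genes 164 were lower at night (90.6%), with a median difference of -0.13, and all 6 class I genes outside the range were lower (median -0.17). Of the 6403 genes outside Olfr of like brightness, 74.6% were lower (median -0.05), and over all 912 other Olfr genes 57.9% were (median -0.02). With cyclic loess scaling 85 of the 108 members (78.7%) were lower, with a median of -0.06, beside 79.6% of the bright other Olfr genes and 56.1% of the genes outside Olfr. In the opposite direction, 0 of 5 muscle and bone genes and 1 of 20 genes of other organs were lower at night. Of the mature neuron markers 5 of 11 were lower at night (median 0.0018), and of the sustentacular markers 1 of 5 (median 0.04). Of the immature neuron markers 7 of 10 were lower (median -0.02). Every measured marker of 2 other cell types lay on the members' side. All 7 respiratory ciliated genes were lower at night (4 at an unadjusted p under 0.05, median -0.18), also with cyclic loess scaling, as were all 5 measured globose basal genes (median -0.06). The part of those lists in the class I difference was not tested.

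**Figure D3:**
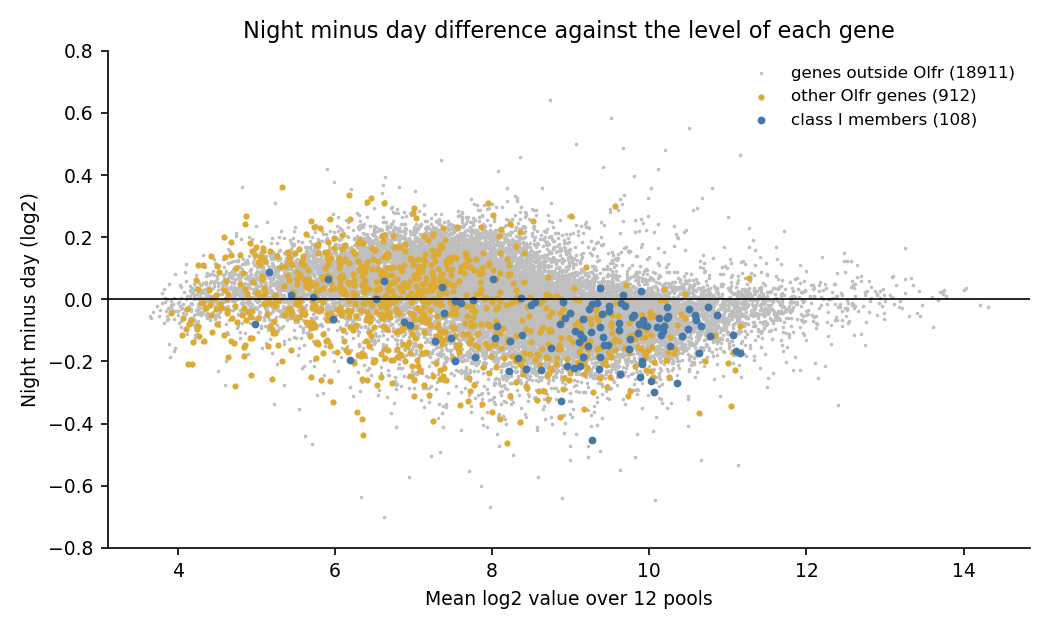
Mean of the 6 night pools minus mean of the 6 day pools in log2 units (vertical axis) against the mean log2 value over the 12 pools (horizontal axis), with 1 point per gene for 108 class I members, 912 other Olfr genes and 18911 genes outside Olfr; 6 genes beyond 0.8 in either direction are not shown, none of them a member. Most class I points lie at high brightness and below 0, where the cloud of all genes also dips below 0, and dim genes lie on both sides.

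Olfr591, Olfr607 and Olfr599 had the smallest p-values in this comparison. Olfr591 had a lowest, median and highest value of 8.88, 8.99 and 9.30 at night and 9.33, 9.43 and 9.94 in the day, a difference of -0.45 ± 0.10 (SE) or 1.37 times higher in the day. Olfr607 had 9.81, 9.92 and 10.02 at night and 9.99, 10.32 and 10.33 in the day, a difference of -0.30 ± 0.08. Its day values were of 2 kinds, with the 4 pools at phases 0 and 8 h from 10.31 to 10.33 and the 2 at 4 h both at 9.99. Olfr599 had 9.78, 9.87 and 10.04 at night and 9.94, 10.17 and 10.29 in the day, a difference of -0.26 ± 0.07, and its groups overlapped. limma's adjusted p was 0.497 for each of the 3.

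No member was higher at night beyond the spread between pools. The 3 with the smallest p-values in that direction were the dim Olfr631 (0.09 ± 0.06), Olfr663 (0.07 ± 0.06) and Olfr574 (0.06 ± 0.06). Their adjusted p-values by limma were 0.542, 0.601 and 0.682, and Olfr574 turned to -0.00388 under cyclic loess scaling. Olfr606, which has a bright probe and a wide spread, had a difference of 0.01 ± 0.14: it read 10.03 at CT12 and 10.25 at CT56, and between 9.34 and 9.85 in the other pools.

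**Figure D4:**
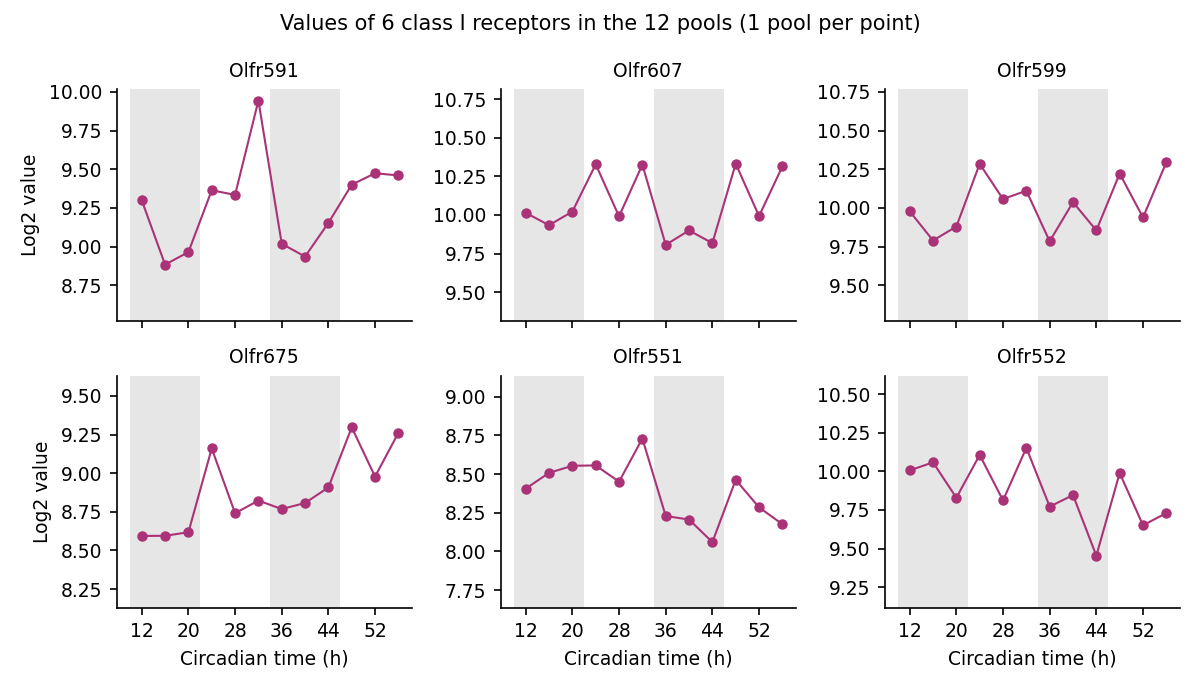
Log2 values (vertical axes, each 1.5 units high) of Olfr591, Olfr607, Olfr599, Olfr675, Olfr551 and Olfr552 by circadian time in hours (horizontal axes), 1 point per pool, with subjective night in grey. Olfr591 is low in both nights, Olfr607 and Olfr599 dip at phase 4 h within the day, Olfr675 is higher in the second cycle and Olfr551 and Olfr552 are lower in it.

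The third comparison asked whether levels drifted between the first 6 pools and the last 6 at matched phase. Time in darkness and any processing order that ran with it cannot be told apart here, since the labels give no batch. limma called 0 of the 108 members and 0 of all genes (0.0%) at an adjusted p of 0.05, and the smallest adjusted p over the members was 0.304. At an unadjusted p under 0.05, 17 members were lower in the second cycle and 3 higher, against 8.94% and 4.22% of all genes. Of 6403 genes outside Olfr of like brightness 965 were lower and 258 higher, and of the 181 bright other Olfr genes 17 and 29. By sign alone 62 members were lower and 46 higher, against 61.7% of all genes lower, with a median of -0.02 against -0.03. The sign of the members' median turned to 0.0015 under cyclic loess scaling, and to 0.0089 without the CT20 or CT44 pool, so no direction is given for the members as a group. Without either of these pools the count of lower members was 5 in place of 17, and without CT12 or CT36 the count of higher members was 5 in place of 3.

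The drift differed by phase. The second pool lay below the first in 90 of 108 members at phase 12 h (median difference -0.12) and in 93 at 20 h (-0.17). At 16, 0 and 4 h it did so in 55, 52 and 54 members, with medians of -0.0034, 0.0011 and -0.0002. At 8 h 36 members were lower, and the median was 0.10. The bright other Olfr genes were lower in 81.8% at 12 h, 61.9% at 20 h and 29.8% at 8 h, with medians of -0.14, -0.06 and 0.13. Of the 6403 genes outside Olfr of like brightness, 4801, 3907 and 4370 were lower (medians -0.11, -0.04 and -0.11), and all genes in 48.4%, 61.7% and 62.1%. Each phase has 1 pool per cycle, so these are differences between 2 pools with no test. In all, 11 members were lower in the second pool at all 6 phases, and 2, Olfr640 and Olfr675, were higher at all 6. By sign 61.7% of all genes were lower in the second cycle. How many of them agreed at all 6 phases was not counted, so no drift of class I is read from the 11 and the 2.

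Olfr675 had the smallest p among the members that were higher. Its first-cycle values had a lowest, median and highest of 8.59, 8.68 and 9.16, and its second-cycle values 8.77, 8.94 and 9.30, so the ranges overlapped although each pair of pools differed the same way. The difference was 0.25 ± 0.06 (SE, limma adjusted p 0.304). Olfr640 had 9.77, 10.09 and 10.25 against 10.05, 10.21 and 10.58, a difference of 0.20 ± 0.06 with the same adjusted p. Olfr603 (0.24 ± 0.08), Olfr618 (0.13 ± 0.07) and Olfr547 (0.10 ± 0.06) were each higher in 5 of 6 pairs.

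Olfr552 and Olfr551, neighbours in number, had the smallest p-values among the members that were lower. Olfr552 read 9.81, 10.03 and 10.15 as lowest, median and highest in the first cycle and 9.45, 9.75 and 9.99 in the second, a difference of -0.25 ± 0.06. Olfr551 read 8.41, 8.53 and 8.73 in the first cycle and 8.06, 8.22 and 8.46 in the second, a difference of -0.30 ± 0.07. limma's adjusted p was 0.304 for both, and both were lower in 6 of 6 pairs. Olfr659 (-0.16 ± 0.05) and Olfr685 (-0.17 ± 0.06) were lower in 6 of 6 pairs as well, and Olfr544 (-0.18 ± 0.06) in 5.

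Members low in the second cycle were not spread evenly by number. Of the 12 members from Olfr543 to Olfr556, 10 were lower, with a median of -0.13, and of the 12 from Olfr645 to Olfr658, 11 were lower, with a median of -0.07. Of the 12 from Olfr611 to Olfr629, 3 were lower, with a median of 0.03. Near neighbours may share probe sequence, so their values are not independent, and the unevenness was not tested. At night 96 of the 108 members were lower, and the count was 8 to 12 in every block of 12. The block medians at night still differed, from -0.16 (Olfr659 to Olfr675) to -0.04 (Olfr645 to Olfr658). Evenness is therefore not read from these counts.

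**Figure D5:**
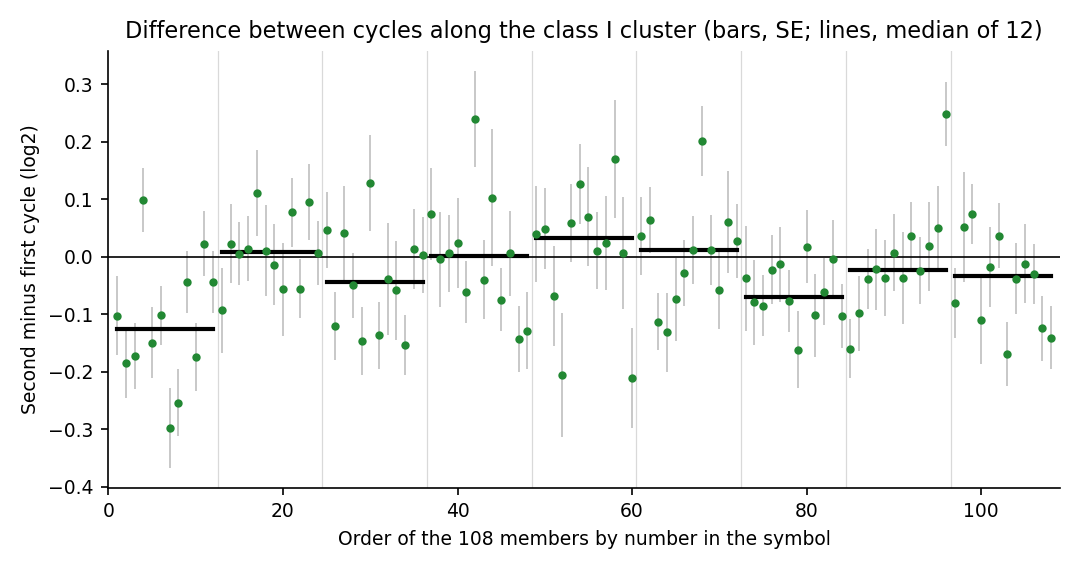
Second minus first cycle difference in log2 units with its standard error (vertical axis) for the 108 members in order of the number in their symbol (horizontal axis); black lines are medians of 12 successive members. The first 12 members have a median of -0.13 and the members from Olfr611 to Olfr629 one of 0.03.

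Members with a described ligand or a role outside the nose had probes brighter than the median of all genes, and none of their differences passed the adjusted tests. Olfr544, a receptor for azelaic acid that has also been described in liver and fat, read 8.45 to 9.15 with a night minus day difference of -0.08 ± 0.11 and a 24 h amplitude of 0.09 ± 0.08. Olfr558, a receptor for isovaleric acid that has been described in enterochromaffin cells of the gut, read 9.31 to 9.64, with a night minus day difference of -0.04 ± 0.07 and a cycle difference of 0.02 ± 0.07. Olfr691 read 9.72 to 10.14 and Olfr692 8.79 to 9.19, and their cycle differences were -0.12 ± 0.06 and -0.14 ± 0.05, lower in 5 of 6 pairs each. limma's adjusted p-values for these 2 were 0.377 and 0.327.

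Among genes that act with the receptors, 0 of the receptor choice, trafficking and transduction lists passed an adjusted p of 0.05 in limma in any of the 3 comparisons. Of 17 choice genes, all measured, 15 lay lower at night by sign, against 51.5% of all genes. With cyclic loess scaling 10 of the 17 were lower, with a median of -0.0069. In the values as deposited, 8 choice genes were lower in the second cycle at an unadjusted p under 0.05, where 8.94% of all genes were. At that threshold 1, Emx2 (-0.21 ± 0.08), was lower at night, where 5.69% of all genes were. Bcl11b, which is known to permit class II choice by holding back the class I enhancer, read -0.18 ± 0.07 in the second cycle (adjusted p 0.318) and 0.03 ± 0.09 at night, while Lhx2 read -0.17 ± 0.05 in the second cycle. Of 6 receptor trafficking genes all 6 lay lower at night, with none past an unadjusted p of 0.05, and 5 were lower with cyclic loess scaling. Rtp1, which carries receptors to the membrane, read -0.09 ± 0.07. Of the 15 measured genes of odorant transduction (of 17 listed) 9 lay lower at night, and 5 with cyclic loess scaling. As deposited, 0 passed an unadjusted p of 0.05 at night, and 7 were lower and 1 higher in the second cycle at that threshold. Neuron markers, which share genes with these lists, were lower in the second cycle too: 10 of 11 of mature neurons by sign (7 at an unadjusted p under 0.05, median -0.17) and 10 of 10 of immature neurons (8, median -0.17). Their part in the values of the choice and transduction lists was not tested. The class I mean correlated over the 12 pools with the choice list at 0.64, the trafficking list at 0.68 and the transduction list at 0.53.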

How the data were processed

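RNA of olfactory epithelium was measured in 12 pools, 1 array each. Per the labels' protocols, total RNA from Trizol was copied by random priming, labelled and put on Affymetrix arrays, and the submitters' processing notes name the tool affy. The deposited values were taken as log2 intensities from their range (3.48 to 14.47). How the authors corrected the background and normalized them is not given in the sources used here. Medians of the columns lay between 7.81 and 7.92. The values were used as deposited, with no floor or filter.

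Of 34760 probes, 21640 name a single gene, and the brightest probe of each gene was kept, giving 19937 genes. limma 3.58.1 in R 4.3.3 fitted all of them, with Benjamini-Hochberg adjustment over all genes: a cosine and a sine of 24 h, night against day as 6 pools against 6, and second against first cycle with phase as a factor. The fits were tested on simulated data. Nothing in the labels ties pools across cycles beyond their phase, and p-values measure the spread between pools. In the 24 h fit and in night against day, that spread includes differences among phases that the fit does not describe.

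Named members were those with the smallest p-values in each comparison (8 in the 24 h fit, 5 in each direction between cycles, 3 in each direction at night), the 3 brightest, dimmest, most and least variable, Olfr544, Olfr558, Olfr691 and Olfr692, and, outside Olfr, the 5 genes most and the 5 least like the members' mean. A planned choice of pairs by protein identity was not made. The members and lists were chosen with earlier results of these data known. Marker lists whose correlations with the class I mean are not given above had these: horizontal basal cells -0.47, globose basal cells 0.48, respiratory secretory cells -0.19, blood -0.41 and vomeronasal genes -0.17. Alternatives were other scalings, a filter on dim genes, array weights, other terms for phase and leaving out each pool.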

Additional observations from a re-analysis of the deposited data

Results flagged for a closer look

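The highest and lowest pools of each named member and of the members' mean were screened within the night pools, the day pools and the pools of each cycle, each a group of 6. A pool stood apart where its gap to the nearest other pool, as a share of the group's range, exceeded Dixon's critical value at 95%. This happened in 10 of 132 groups, where a chance of about 1 in 20 would give 6.6. That rate does not strictly apply, since many of the members were named by these same values and the groups of 6 share pools. These counts are therefore not a test.

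The CT56 pool accounts for 5 of them. Olfr585 read 6.65 there, with a share of 0.684 of the range of the day pools and 0.766 of that of the second cycle. Olfr630 read 8.03 there, with a share of 0.869 in the second cycle, and Olfr672 read 11.46, with a share of 0.636 among the day pools. The dim Olfr663 was low there instead, at 5.76, with a share of 0.651 in the second cycle. CT56 is also the pool least like the others over all genes (mean correlation 0.975).

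The CT32 pool was high in Olfr591 (9.94, share 0.771 of the day pools) and in the dim Olfr624 (5.36, share 0.819 of the first cycle). Olfr606 was high at CT12 (10.03, share 0.676 of the first cycle). Olfr616 was low at CT52 (8.14, share 0.661 of the day pools), and Olfr618 was low at CT36 (9.49, share 0.677 of the second cycle).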

How the results depend on the processing

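In every alternative run, 0 members passed an adjusted p of 0.05 by limma in any of the 3 comparisons, and the smallest adjusted p of a named member was 0.0558, with array weights. The counts at an unadjusted p under 0.05 moved more. In the 24 h fit the 3 members became 1 with median centring, 13 with array weights, 5 without CT32 and CT56, and, chosen after seeing the data, 11 with cyclic loess and without those pools and 34 with phase as a factor. Between cycles the 17 lower members became 9 with cyclic loess, 26 with array weights, 7 with a 24 h cosine in place of the phase factor, 9 with no phase term and 10 with cyclic loess and without CT32 and CT56. At night the 20 lower members became 48 with array weights, 8 without the phases 0 and 12 h, 10 without CT32 and CT56 and 9 with cyclic loess besides, and the 0 higher became 1 with array weights. Leaving out 1 pool at a time gave 1 to 8 members in the 24 h fit, 5 to 14 lower and 2 to 5 higher between cycles, and 14 to 30 lower and 0 to 1 higher at night. The members lower at night by sign numbered 82 to 98 with 1 pool left out and 73 to 101 over all alternatives, and the median stayed between -0.131 and -0.038. Between cycles, leaving out a pool also removes its phase partner from the comparison. Of 380 recomputed signed differences of single members, 377 kept their direction, and none passed the adjusted threshold. The 3 that did not keep it were Olfr574 at night, at -0.00388 with cyclic loess, -0.033 without the phases 0 and 12 h and -0.00936 with cyclic loess and without CT32 and CT56. A 24 h amplitude has no sign, and 10 of 199 recomputed amplitudes were lower than the reported one by over 1.5 times. Without CT32 and CT56 Olfr630 had 0.06, Olfr576 0.08, Olfr585 0.09 and Olfr561 0.08, and with cyclic loess besides 0.00605, 0.08, 0.06 and 0.08. The causes were not tested. The comparison of cycles is paired by phase, and the fit with no phase term is its unpaired form. Dim members, whose probes lie near those of genes of other organs, can hide differences that brighter probes would show.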
